A study of Mus musculus with 10 samples.

Results

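Renal gluconeogenesis and arginine-creatine synthesis were described through 9 genes in the renal cortex of 10 mice: Pck1, G6pc, Fbp1, Pcx and Slc37a4 of glucose formation, Ass1 and Asl of arginine synthesis, Gatm of creatine synthesis and Miox of inositol breakdown. They were chosen by name as a pathway set, with earlier results of these data known. On Affymetrix mouse arrays, each was read from the probe set of highest mean among those annotated to it alone. All 9 of 9 genes were found among 18193 genes with a probe set of their own, and all 9 passed the filter on low values. All values are RMA log2 expression values, 1 array per mouse, and a step of 1 is a doubling. The kidneys came from FVB/N mice aged 20 weeks that had undergone partial kidney ablation and then uninephrectomy, which leaves a remnant kidney in every animal of both groups. One group of 5 mice received aliskiren, an inhibitor of renin, at 50 mg/kg per day, and the other group of 5 mice received losartan, a blocker of the type 1 angiotensin II receptor, at 500 mg/l. Dosing ran for 6 weeks, beginning when 6 weeks had passed since the ablation and 4 weeks since the removal of the other kidney. Untreated and unoperated mice were not analysed here, so neither drug was set against a control. Nothing in the labels says that the mice of a group came from separate litters or cages, so the p-values measure the spread between these 10 animals.

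The proximal tubule makes glucose from lactate, glutamine and glycerol and releases it into the blood, which among organs only the kidney and liver do to any extent. The same cells turn citrulline from the gut into arginine, supply much of the body's circulating arginine, and carry out the first step of creatine synthesis from it. Injured proximal tubules are known to lose transport and metabolic genes and to gain Havcr1, which encodes the injury marker KIM-1. The members were therefore described by drug and along the Havcr1 level of each mouse, a measured value of the same arrays and not a treatment.

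Proximal tubule markers were high in every mouse, while cortex and whole kidney were not told apart: 14 of 15 markers could be tested, and their mean log2 value was 12.91 to 13.01 in aliskiren mice and 12.19 to 13.04 in losartan mice. Losartan mouse 3 gave the 12.19 and stood apart from the other losartan mice, which began at 12.86. That mouse also had the highest Havcr1 value, 10.76, and the highest mean of the 4 fat markers tested of 10 listed, 11.74. Fat marker means were 6.53 to 9.36 in aliskiren mice, with the highest values in mouse 3 and, at 7.87, mouse 2, and 6.55 to 6.81 in the other losartan mice. Adipoq, which encodes adiponectin and marks fat cells, stood at 7.35 in aliskiren mouse 2, 9.90 in aliskiren mouse 3 and 12.96 in losartan mouse 3, and at 3.17 to 3.96 in the other mice. Results of the members that rest on losartan mouse 3 are given with and without it.

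The promoters of 4 genes are shown because the text returns to them most: Slc37a4 had the one slope along Havcr1 that passed its test, by a narrow margin, Pck1 and G6pc encode the controlled first and last steps of glucose formation, and Miox had the smallest p between the drugs. Each window is RefSeq sequence of GRCm38.p6 from 250 bases before to 50 bases after a transcript start, 5′ to 3′ on the gene's strand, which is the plus strand in all 4 cases. Capitals mark matches, searched on both strands, to 4 motifs. TTACGTCA is a variant of the element through which cyclic AMP acts on transcription. GTTAAT is a core recognised by the HNF1 factors of kidney and liver. AGGTCA is the element that many nuclear receptors recognise. TATAAA is the sequence of the classical TATA box. No matches overlapped.
Slc37a4, chr9:44396696-44396995: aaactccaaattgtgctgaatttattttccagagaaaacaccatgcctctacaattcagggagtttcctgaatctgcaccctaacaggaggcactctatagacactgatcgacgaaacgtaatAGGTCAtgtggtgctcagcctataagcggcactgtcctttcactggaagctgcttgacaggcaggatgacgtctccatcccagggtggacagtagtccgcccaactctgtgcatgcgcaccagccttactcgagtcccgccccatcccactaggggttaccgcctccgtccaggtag
Pck1, chr2:173152823-173153122: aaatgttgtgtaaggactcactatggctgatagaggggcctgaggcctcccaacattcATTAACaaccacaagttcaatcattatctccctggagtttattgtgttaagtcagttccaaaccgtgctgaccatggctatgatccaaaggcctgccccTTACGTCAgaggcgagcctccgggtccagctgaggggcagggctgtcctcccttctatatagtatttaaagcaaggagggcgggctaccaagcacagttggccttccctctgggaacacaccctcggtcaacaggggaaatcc
G6pc, chr11:101367466-101367765: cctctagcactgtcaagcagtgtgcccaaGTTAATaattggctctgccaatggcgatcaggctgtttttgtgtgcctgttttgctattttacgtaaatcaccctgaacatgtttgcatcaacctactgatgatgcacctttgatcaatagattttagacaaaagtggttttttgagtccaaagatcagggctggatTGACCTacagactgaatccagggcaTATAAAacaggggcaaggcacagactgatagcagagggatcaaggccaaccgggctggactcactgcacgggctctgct
Miox, chr15:89334223-89334522: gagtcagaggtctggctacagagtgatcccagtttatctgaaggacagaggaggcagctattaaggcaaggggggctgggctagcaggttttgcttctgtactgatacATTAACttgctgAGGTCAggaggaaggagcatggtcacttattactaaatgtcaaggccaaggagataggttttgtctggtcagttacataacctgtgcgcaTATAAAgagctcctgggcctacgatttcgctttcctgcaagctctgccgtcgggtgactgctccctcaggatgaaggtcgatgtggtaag
TTACGTCA lay 93 bases before the start of Pck1, a gene whose promoter is known to answer cyclic AMP, and was found in 0.499% of the 32851 promoter windows in the table. Of the 8 members with a window (Asl is not among them), the HNF1 core was found for 3 (Pck1, G6pc and Miox), against 7.1% of all windows. The nuclear receptor element was found for 5 of the 8, against 16.3% of all windows, and the TATA box for 3 of the 8, against 13.6%. The receptor match of Pcx lay 39 bases after a start. The counts are per gene, over any of its windows, while the shares are per window. Slc37a4 has 3 windows in the table and Pcx has 2, which gives these genes more bases to match, and the most upstream one of Slc37a4 is printed. A match is a description of letters, and these arrays hold no measure of factor binding.

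Between the drugs, the genes of the gluconeogenic path were at nearly the same level with all mice included. Pck1, which encodes the cytosolic phosphoenolpyruvate carboxykinase that commits carbon to glucose, had 13.38, 13.52, 13.78, 13.44 and 13.78 in aliskiren mice 1 to 5, and 13.67, 13.65, 13.21, 13.95 and 13.44 in losartan mice 1 to 5. Its means were 13.58 ± 0.19 with aliskiren and 13.58 ± 0.28 with losartan (SD, n = 5 each). The losartan mice spanned the aliskiren mice on both sides, with mouse 3 lowest and mouse 4 highest. Fbp1, the fructose-bisphosphatase of the middle of the path, had 14.27 ± 0.06 with aliskiren and 14.27 ± 0.13 with losartan. Slc37a4, which carries glucose 6-phosphate into the endoplasmic reticulum, had 12.05 ± 0.10 with aliskiren and 12.06 ± 0.30 with losartan. The groups overlapped for each of these genes, and the wider spread in losartan mice came from mouse 3 at the low end and mouse 1 or 4 at the high end. The near-equal means rest in part on losartan mouse 3. Without it the differences were -0.099 for Pck1, -0.049 for Fbp1 and -0.113 for Slc37a4. With all mice they were -0.0054, -0.00081 and -0.0018, and none passed either way.

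G6pc, which encodes the glucose 6-phosphatase that releases free glucose, had 12.98 ± 0.34 with aliskiren and 13.05 ± 0.37 with losartan. Its lowest value was 12.60 in aliskiren mouse 1 and its highest 13.52 in losartan mouse 1, a span of 1.89-fold. The group means differed by -0.064 (SE 0.20), and the groups overlapped. Pcx, the mitochondrial pyruvate carboxylase that feeds the path, had the smallest span over the mice. It had 11.79, 11.94, 12.11, 11.78 and 11.88 in aliskiren mice 1 to 5 and 12.01, 11.90, 12.06, 12.01 and 11.98 in losartan mice 1 to 5. Aliskiren mice 1, 4 and 5 lay below every losartan mouse, while aliskiren mouse 3 lay above all of them. Without losartan mouse 3 the difference was -0.132 for G6pc, against -0.064 with all mice. For Pcx it was -0.078, against -0.096 with all mice, and neither gene passed.

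The arginine, creatine and inositol genes had lower means with aliskiren, by amounts inside the spread between mice, apart from Ass1. Miox, the inositol oxygenase that opens inositol for conversion to glucuronate and is known for its near restriction to the proximal tubule, had 13.74, 14.05, 13.88, 13.74 and 13.92 in aliskiren mice 1 to 5 and 14.31, 14.02, 13.89, 13.92 and 14.15 in losartan mice 1 to 5. The difference was -0.19 (SE 0.09, limma adjusted p = 0.945), with the smallest unadjusted p of the members. Aliskiren mouse 2 was higher than losartan mice 2, 3 and 4, so the groups overlapped. Gatm, the amidinotransferase that joins arginine and glycine in the first step of creatine synthesis, had 12.14 ± 0.25 with aliskiren and 12.32 ± 0.24 with losartan. Its lowest value, 11.72, was in aliskiren mouse 1. Asl, the lyase that releases arginine, had 10.69 ± 0.11 with aliskiren and 10.87 ± 0.30 with losartan, and losartan mice held both its lowest value, 10.44 in mouse 4, and its highest, 11.22 in mouse 1.

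Ass1, which makes argininosuccinate from citrulline and is the rate-setting enzyme of arginine synthesis, had 6.92, 6.96, 7.67, 7.84 and 7.53 in aliskiren mice 1 to 5 and 7.12, 7.43, 6.99, 7.20 and 7.84 in losartan mice 1 to 5. The aliskiren mice fell into low values in mice 1 and 2 and high values in the others, with losartan mice between and beside them. The difference was 0.07 (SE 0.21) with all mice and -0.012 without losartan mouse 3. Another probe set is annotated to Ass1 together with the pseudogene Gm5424 and cannot be given to either. Its mean over all mice was 11.41, against 7.35 for the probe set of Ass1 alone, so Ass1 was read from the weaker set. The shared probe set had 11.25, 11.37, 11.40, 11.44 and 11.47 in aliskiren mice 1 to 5. In losartan mice 1 to 5 it had 12.10, 11.39, 10.82, 10.96 and 11.92. It put losartan mouse 1 highest where the probe set of Ass1 alone put aliskiren mouse 4 and losartan mouse 5.

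**Figure D1:**
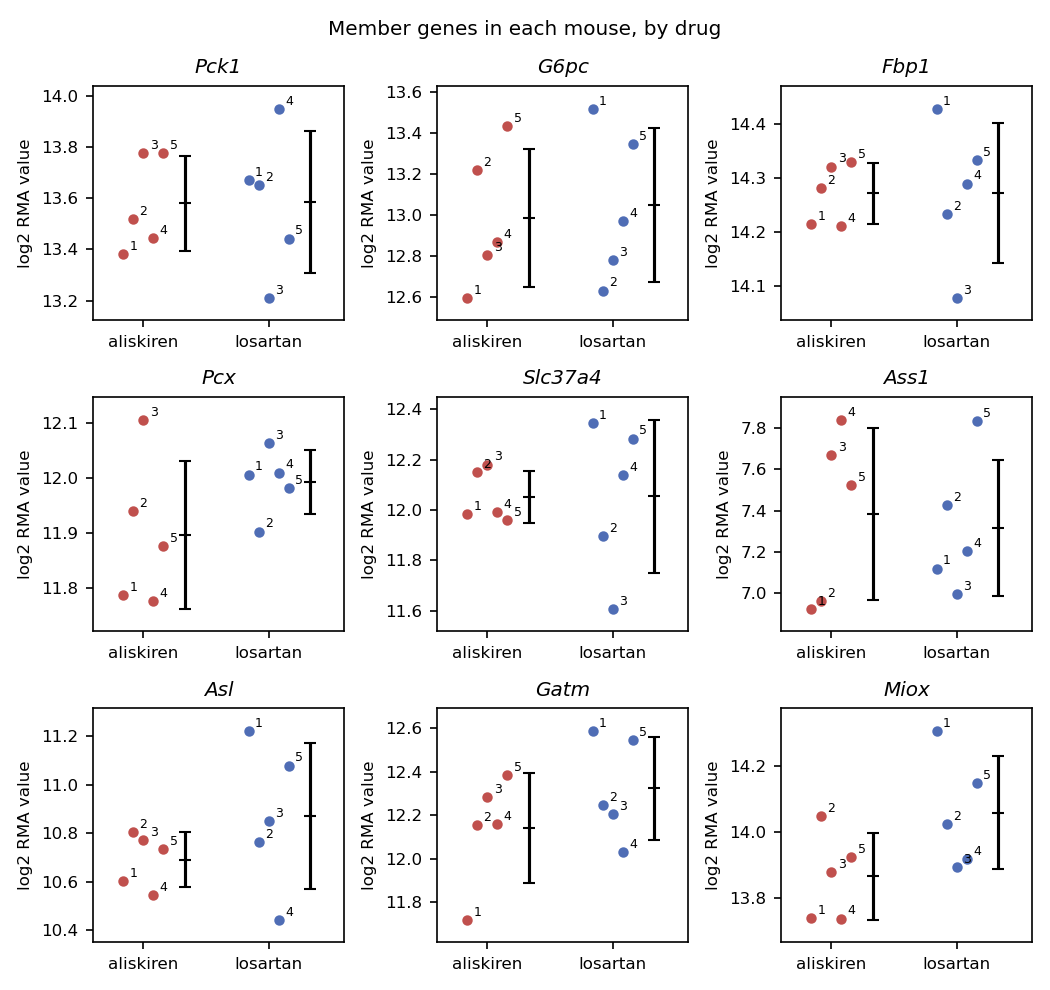
Log2 RMA value of each member gene (y axis, own scale per panel) in every mouse, aliskiren left in red and losartan right in blue, numbered by mouse, with the mean and SD of each group (n = 5) as a black bar. The groups overlap in all 9 panels, and losartan mouse 1 is the highest mouse in 6 of them.

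Tested with limma over all genes, 0 of 9 members passed an adjusted p of 0.05 and 0 of 9 had a p under 0.05 before adjustment. Over the 11486 genes tested 0 passed (0%), 542 (4.72%) had an unadjusted p under 0.05, and an ordinary t statistic also gave 0 after adjustment. Groups did not overlap for 0 of 9 members, against 0.914% of all genes. For all 9 members the 95% interval of the difference stayed within 1.5-fold in both directions, which held for 87.7% of all genes. The widest were G6pc, with an interval from 0.702-fold to 1.30-fold, and Ass1, from 0.756-fold to 1.45-fold, and the narrowest was Fbp1, from 0.90-fold to 1.11-fold. The median difference was -0.06 over the members and -0.01 over all genes.

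Some mice were low or high for several members, while how often these mice were lowest or highest over all genes was not counted. Aliskiren mouse 1 was among the lowest 3 mice for 8 of 9 members and lowest for 3 (G6pc, Ass1 and Gatm). Losartan mouse 1 was highest for 6 of 9 members (G6pc, Fbp1, Slc37a4, Asl, Gatm and Miox), and losartan mouse 5 was among the highest 3 for 7 of 9. Losartan mouse 1 also had the highest mean of the proximal tubule markers, 13.04, and of the loop of Henle and distal tubule markers, 11.56. Losartan mouse 3 was lowest for Pck1, Fbp1 and Slc37a4 and second highest for Pcx. Fat cells are known to express Pck1 and Pcx. In losartan mouse 3, where the fat markers were highest, Pck1 was the lowest of 10 mice and Pcx stood at 12.06. In aliskiren mouse 3, with the next highest fat marker mean, 9.36, Pcx was the highest of 10 mice at 12.11 and Pck1 stood at 13.78. The part of fat in these values was not tested. The spans from lowest to highest mouse ran from 1.26-fold for Pcx to 1.89-fold for G6pc and Ass1.

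Along Havcr1, the members tended downward. Havcr1 was 9.37, 8.53, 6.08, 6.57 and 7.82 in aliskiren mice 1 to 5 and 7.23, 8.69, 10.76, 6.22 and 5.41 in losartan mice 1 to 5, a range of 5.34 that showed no separate clusters, since its largest gap between neighbours was 1.39. In a limma fit with drug and Havcr1 as terms, the fitted slope was negative for 9 of 9 members, against 43.4% of all genes, and 1 of 9, Slc37a4, passed an adjusted p of 0.05 as falling. As the members were chosen with earlier results of these data known, the count of signs is a description and not a test. Among 11485 genes, 2.91% passed as falling, 11% as rising and 13.9% in either direction. Without losartan mouse 3, 0 of 9 members passed and 8 of 9 slopes were negative, against 35.8% of all genes. The median slope was -0.06 log2 units per unit of Havcr1 over the members and 0.01 over all genes. In bulk tissue, fewer proximal tubule cells and less RNA per cell cannot be told apart in such a slope.

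Slc37a4 fell by 0.098 per log2 unit of Havcr1 (SE 0.029, limma adjusted p = 0.0496), or 6.57% per doubling of Havcr1. The call lay at the threshold and was kept in 7 of 25 alternatives: the adjusted p was 0.058 without a level filter, 0.055 with quantile normalization and 0.0937 with an ordinary t statistic. It had 11.98, 12.15, 12.18, 11.99 and 11.96 in aliskiren mice 1 to 5 and 12.35, 11.90, 11.61, 12.14 and 12.28 in losartan mice 1 to 5. The lowest value, 11.61, was in losartan mouse 3, the mouse of highest Havcr1, and the aliskiren mice lay close together. Without that mouse the slope was -0.057 and did not pass (limma adjusted p = 0.566). Without it the count over all genes was 0 falling and 22 rising, against 334 falling and 1258 rising with all mice. Over 10 mice Pearson's r was -0.77 (permutation p = 0.0084) and Spearman's rho was -0.733 (permutation p = 0.0206). Without losartan mice 3 and 5, the mice farthest from the median of Havcr1, r was -0.445 (permutation p = 0.266). That is a weaker relation, in 8 mice over a narrower range of Havcr1.

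Ass1 had the steepest fitted slope of the members, -0.153 (SE 0.048, limma adjusted p = 0.0615), and did not pass. Its highest value in each group was in a mouse of low Havcr1, aliskiren mouse 4 and losartan mouse 5, and r was -0.915 in aliskiren mice and -0.644 in losartan mice, values of 5 mice each with no test. Over all mice r was -0.72 (permutation p = 0.0216) and rho was -0.721 (permutation p = 0.0238), and r was -0.589 (permutation p = 0.125) without losartan mice 3 and 5. Its slope was -0.197 without losartan mouse 3. The probe set shared by Ass1 and Gm5424 had a slope of -0.117 (SE 0.063, limma adjusted p = 0.234).

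The other gluconeogenic genes had shallower slopes that did not pass. Fbp1 had a slope of -0.038 (SE 0.018, limma adjusted p = 0.188) with all mice and -0.015 without losartan mouse 3, with r = -0.672 (permutation p = 0.0318) and rho = -0.624 (permutation p = 0.0589). Without losartan mice 3 and 5 its r was -0.334 (permutation p = 0.426), which was weaker too. Pck1 had -0.073 (SE 0.037, limma adjusted p = 0.207) with all mice and -0.031 without losartan mouse 3. G6pc had -0.079 (SE 0.060, limma adjusted p = 0.392), with r = 0.011 in aliskiren mice and -0.635 in losartan mice, and Pcx had -0.0091 (SE 0.022, limma adjusted p = 0.808) with all mice and -0.038 without losartan mouse 3. Pcx was near its highest in losartan mouse 3, where Pck1, Fbp1 and Slc37a4 were lowest.

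Gatm had a slope of -0.061 (SE 0.041, limma adjusted p = 0.337), and its low value in aliskiren mouse 1 belonged to the mouse of second highest Havcr1. Asl had -0.0075 (SE 0.042, limma adjusted p = 0.922) and Miox -0.023 (SE 0.029, limma adjusted p = 0.625), or 0.0045 without losartan mouse 3. For these 3 genes r over 10 mice was -0.411, -0.055 and -0.217 (permutation p = 0.24, 0.879 and 0.549). The 9 correlations form 1 family, carry no drug term, and their p-values are unadjusted. Counting every member, 2 of 9 slopes (Slc37a4 and Ass1) had an unadjusted p under 0.05, which 32.1% of all genes had in either direction and 10.7% as falling. The stronger probe set shared by Ass1 and Gm5424 did not reach this, with an unadjusted limma p of 0.0941.

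**Figure D2:**
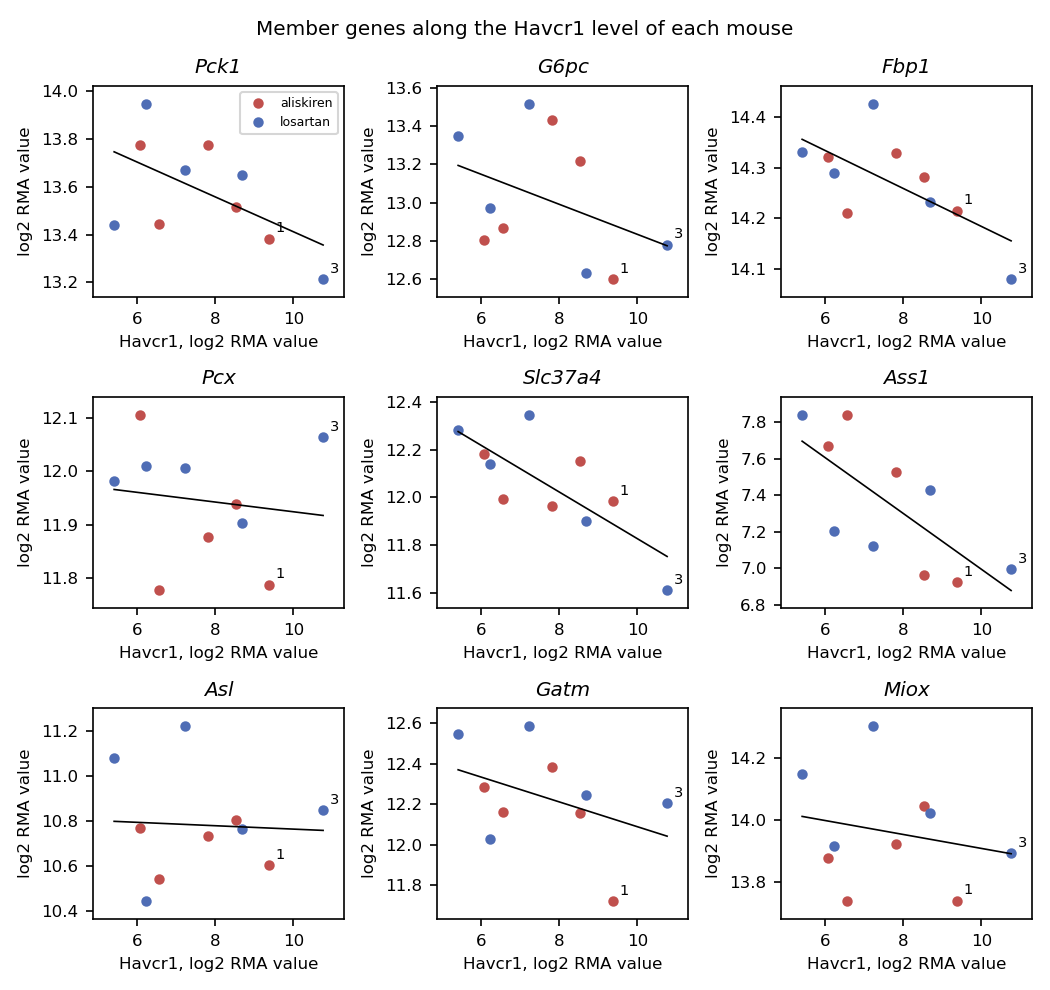
Log2 RMA value of each member (y axis, own scale per panel) against the Havcr1 log2 value of the same mouse (x axis), aliskiren in red and losartan in blue, with the slope of the fit with drug and Havcr1 drawn through the overall mean. Aliskiren mouse 1 and losartan mouse 3 are numbered, and losartan mouse 3, at a Havcr1 of 10.76, is the lowest point for Pck1, Fbp1 and Slc37a4.

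The slopes were not shown to differ between the drugs. Slc37a4 had a slope of -0.025 in aliskiren mice and -0.128 in losartan mice, a difference of 0.10 (SE 0.06, limma adjusted p = 0.722). Ass1 had -0.281 in aliskiren mice and -0.10 in losartan mice, a difference of -0.18 (SE 0.09, limma adjusted p = 0.713). Of the members 0 of 9 passed this test and 0 of 9 had an unadjusted p under 0.05, against 0% and 7.19% of 11485 genes.

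Proximal tubule markers also had mostly negative slopes, and no test set them against the members. Of 14 tested markers 13 had a negative slope with all mice, at a median of -0.06, and 10 without losartan mouse 3, at a median of -0.01, where the members' median was -0.04. The markers included the endocytosis receptor gene Lrp2 at -0.091, the phosphate transporter gene Slc34a1 at -0.080 and Slc7a13, a transporter gene of the last proximal segment, at -0.330, of which none passed. Without losartan mouse 3 these slopes were -0.038, -0.015 and -0.023. The sulfate transporter gene Slc13a1 rose by 0.121 (limma adjusted p = 0.0156, or 0.298 without losartan mouse 3). With the mean of the proximal tubule markers as a further term, the slope of Slc37a4 was -0.052 (limma adjusted p = 0.617), that of Ass1 -0.207 and that of Pck1 -0.024, and 0 of 9 members passed. With the mean of the fat markers as a further term Slc37a4 had -0.084 (limma adjusted p = 0.19). Of the other tubule segments, 5 of 7 loop of Henle and distal tubule markers had negative slopes, at a median of -0.05 with all mice and 0.0041 without losartan mouse 3, and 1 passed as falling, Pvalb of the distal tubule. Collecting duct markers had 4 negative and 4 positive slopes. Outside the tubule, 6 of 7 macrophage and leukocyte markers and 7 of 8 fibroblast and matrix markers passed as rising with Havcr1, with median slopes of 0.54 and 0.42. Over all genes 11% passed as rising. Without losartan mouse 3 the medians were 0.47 and 0.30, 2 of 7 and 0 of 8 passed, and 6 of 7 and 7 of 8 had an unadjusted p under 0.05. Their mean values were 7.40 to 9.03 and 7.76 to 9.09 in aliskiren mice, and 6.67 to 9.60 and 7.42 to 10.35 in losartan mice. Of the endothelium markers 1 of 8 passed as rising, at a median of 0.10, and of the fat markers 0 of 4, at a median of 0.45. All 3 tested liver markers had negative slopes, and 1 passed as falling. Without losartan mouse 3 none of the endothelium, fat and liver markers passed, and all 4 fat slopes were negative, at a median of -0.21. The part of cells outside the tubule in the members' slopes was not tested.

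**Figure D3:**
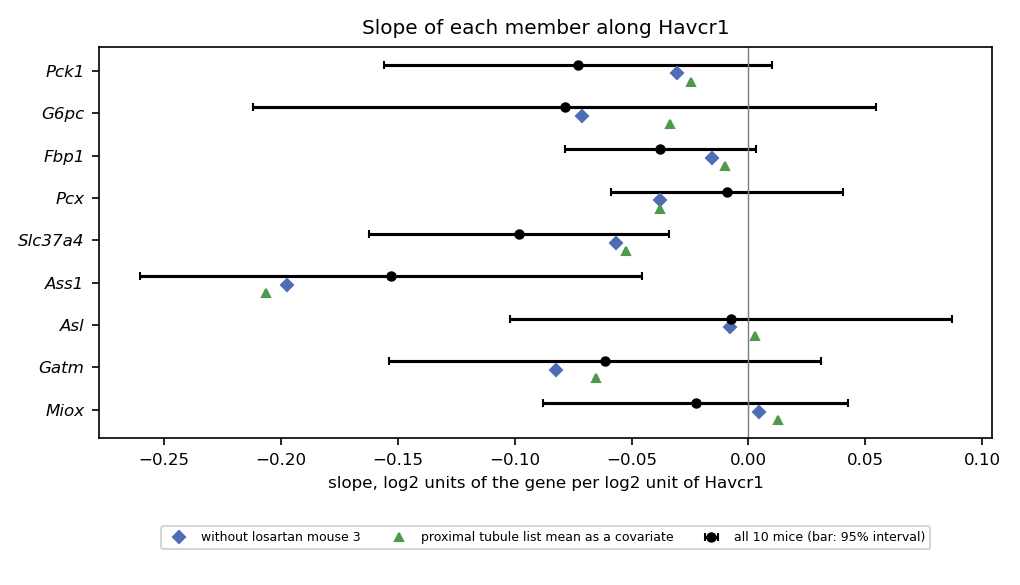
Slope of each member in log2 units per log2 unit of Havcr1 (x axis), with all 10 mice and the 95% interval in black, without losartan mouse 3 as blue diamonds and with the mean of the proximal tubule markers as a further term as green triangles. All 9 black points lie below 0, and only the intervals of Slc37a4 and Ass1 exclude 0. Ass1 is drawn from its weaker probe set, not from the one shared with Gm5424.

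Genes around the members moved both ways along Havcr1, and in the 8 pathway lists 0 genes passed once losartan mouse 3 was left out. With all mice 13.9% of all genes passed in either direction, 11% as rising and 2.91% as falling. No test set the counts per list against these shares. Of 15 tested other gluconeogenic enzymes and carriers 0 passed in either direction and 9 had negative slopes, with a median of -0.01. The mitochondrial carboxykinase gene Pck2 had 0.087 (SE 0.028, limma adjusted p = 0.063) and Slc25a1, the citrate carrier gene, had 0.168 (SE 0.055, limma adjusted p = 0.0675). Without losartan mouse 3 these slopes were 0.048 and 0.015. Of 15 genes for the entry of glutamine, lactate and alanine and for ammonia formation 1 fell: Slc13a2, which takes up citrate and other dicarboxylates from the tubular fluid, at -0.140 (limma adjusted p = 0.0468), or -0.064 without losartan mouse 3. Of 7 fructose and glucose handling genes 1 passed, Slc5a1, the sodium-glucose cotransporter gene SGLT1, which rose by 0.066 (limma adjusted p = 0.0383). The fructose kinase gene Khk had -0.097 (limma adjusted p = 0.0556), or -0.022 without losartan mouse 3.

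Of 10 genes of committed glycolytic steps 8 had positive slopes, with a median of 0.12. The phosphofructokinase gene Pfkp rose by 0.267 (SE 0.036, limma adjusted p = 0.00322) while the muscle-type gene Pfkm fell by 0.073 (limma adjusted p = 0.0428). The hexokinase gene Hk2 had 0.427 with all mice, which did not pass, and -0.078 without losartan mouse 3. With losartan mouse 3 left out, the median of these genes was -0.01 and Pfkp had 0.213 (limma adjusted p = 0.0944).

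Among 16 tested genes around arginine 2 rose and 1 fell, against 11% and 2.91% of all genes. Ddah2, which breaks down methylated arginines that inhibit nitric oxide synthases, rose by 0.130 (SE 0.020, limma adjusted p = 0.00439), and Slc7a1, a transporter gene for arginine and lysine, rose by 0.170 (limma adjusted p = 0.0153). Azin2, an antizyme inhibitor gene of polyamine metabolism, fell by 0.092 (limma adjusted p = 0.0127). Without losartan mouse 3 these slopes were 0.105, 0.112 and -0.116, with limma adjusted p = 0.124, 0.314 and 0.0878. Of 5 creatine genes 0 passed, and Gamt, which completes creatine synthesis after Gatm, had -0.114 (limma adjusted p = 0.0801), or -0.064 without losartan mouse 3. All 10 tested inositol and glucuronate genes had negative slopes and 1 passed, Dcxr, the xylulose reductase gene of the glucuronate path downstream of Miox, which fell by 0.122 (limma adjusted p = 0.0356, or 0.543 without losartan mouse 3).

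Of 16 regulator genes 1 rose and 1 fell, against 11% and 2.91% of all genes. Cebpb, a transcription factor gene induced in stress and fasting, rose by 0.184 (limma adjusted p = 0.0446), and Esrra, a nuclear receptor gene of mitochondrial energy metabolism, fell by 0.076 (limma adjusted p = 0.0474). Hnf4a, the nuclear receptor gene that maintains proximal tubule identity, had -0.055 (SE 0.020, limma adjusted p = 0.0871). Without losartan mouse 3 these slopes were 0.099, -0.065 and -0.021, and none passed. Between the drugs 0 genes of these 8 lists passed. The values of smallest p were Slc6a8, the creatine transporter gene, with 10.76 ± 0.15 with aliskiren and 11.01 ± 0.16 with losartan, Impa1, an inositol phosphatase gene, with 11.08 ± 0.11 with aliskiren and 10.81 ± 0.23 with losartan, and Odc1, the ornithine decarboxylase gene, with 13.53 ± 0.23 with aliskiren and 13.04 ± 0.32 with losartan (SD, n = 5 each), all with a limma adjusted p of 0.945.

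**Figure D4:**
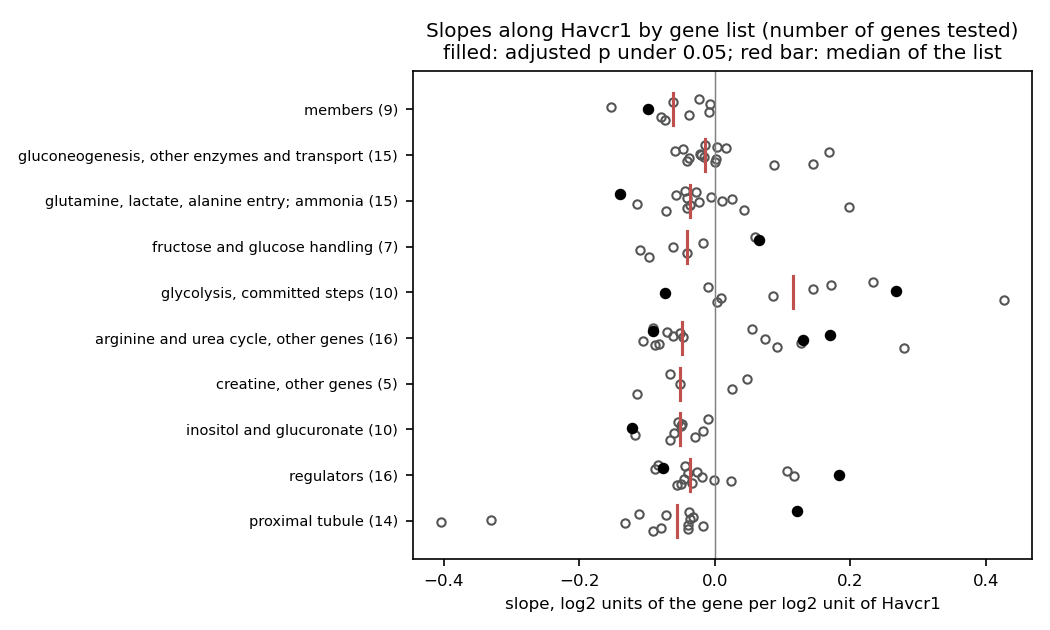
Slope along Havcr1 (x axis, log2 units per log2 unit) of every tested gene of each list, 1 circle per gene, filled where the adjusted p is under 0.05, with the median of the list as a red bar. The medians are negative for every list except the committed glycolytic steps, where the median is 0.12.

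The genes whose values over the 10 mice were most like the mean of the 9 scaled members were led by Slc22a8, the organic anion transporter gene OAT3 of the proximal tubule, at r = 0.97. Utp20 (r = 0.946), Lpar3 (r = 0.936), Dpyd (r = 0.934), which encodes the pyrimidine-degrading dihydropyrimidine dehydrogenase, and Mtf1 (r = 0.914), a metal-responsive transcription factor gene, came next. Then came Nabp2, Mocs2, Aqp11, Nudt3 and Ldah, at r from 0.902 to 0.913. These are likeness values over 10 shared arrays, picked as the highest among all genes tested, and carry no test.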

How the data were processed

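Renal cortex RNA of 10 mice was measured on Affymetrix mouse arrays from 100 ng of total RNA, per the labels' protocols. The authors deposited log2 values, and the submitters' processing notes name RMA and Affymetrix Expression Console 1.1. RMA sets arrays to a common distribution, so a difference in total RNA per cell is not visible. The table held 45101 probe sets, 64 of them controls, with array medians of 5.527 to 5.566, and no 2 arrays were identical. Arrays have no depth, and 5 per group limit the precision. The build behind the probe annotation is not given in the sources used here.

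Genes were named from the 34945 probe sets with 1 gene symbol, while 932 had several and 9160 none. Each gene was read from its probe set of highest mean, and 11486 genes whose mean was at least 5.53, the median over non-control probe sets, were tested. Fits used limma 3.58.1 in R 4.3.3 (lmFit, eBayes, two-sided) with Benjamini-Hochberg adjustment over all genes at 0.05: drug alone, drug plus Havcr1 as a continuous term, and both with their product. Differences are aliskiren minus losartan. Correlations used two-sided permutation tests of 100000 resamples (numpy 2.4.6). The fits were tested on simulated data.

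Named genes are all members, up to 3 genes of smallest p per pathway list and fit, and the 10 genes most like the members, of which the text gives those it needs. Alternatives covered filter, probe set, scaling, variance model, array weights, covariates, the injury readout, the mouse number as a block and leaving out mice. Members and lists were chosen with earlier results of these data known.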

Additional observations from a re-analysis of the deposited data

How the results depend on the processing

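The count of members that differed between the drugs was 0 in all 23 alternatives. The count with a slope along Havcr1 was 1 in 10 of 25 alternatives and 0 in the other 15. It was 0 without a level filter, with the filter at the 75th percentile, with the probe set of highest SD, with array medians set equal, with an ordinary t statistic, with array weights, with the mouse number as a replicate block, without aliskiren mouse 1 and losartan mouse 3 together, and with the fat or the proximal tubule mean as a further term. Leaving out 1 mouse gave 0 to 1, and it was 0 when the mouse left out was losartan 3, losartan 5, aliskiren 1, aliskiren 3 or aliskiren 5. Slc37a4 kept its call in 7 of 25 alternatives, and its adjusted p ran from 0.0343 to 0.889. Under quantile normalization and without losartan mouse 2 or 4 the passing member was Ass1, with limma adjusted p = 0.0308 under quantile normalization. Ass1 fell below the filter at the 75th percentile and was not tested there. The number of genes passing over the whole table ran from 1 to 2260, with 1592 in the fit as reported, and was 453 with array weights, 435 with the replicate block, 536 with the fat mean, 48 with the proximal tubule mean, 923 with an ordinary t statistic, 622 at the 75th percentile filter, 964 without aliskiren mouse 1, 959 without losartan mouse 4, 22 without losartan mouse 3 and 1 without both mice. The cause of these shifts was not tested, except that a stricter filter tests fewer genes.

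Small drug differences turned in sign: with array medians set equal Pck1 was at 0.0034, Fbp1 at 0.0080 and Slc37a4 at 0.0071, and with quantile normalization Pck1 was at 0.0058. Leaving out 1 mouse, drug differences ran from -0.099 to 0.086 for Pck1, -0.176 to 0.053 for G6pc, -0.049 to 0.038 for Fbp1, -0.113 to 0.071 for Slc37a4 and -0.045 to 0.199 for Ass1. Slopes ran from -0.042 to 0.021 for Asl, -0.036 to 0.0045 for Miox and -0.038 to 0.0084 for Pcx. The difference in slope between drugs ran from -0.036 to 0.061 for Asl, -0.124 to 0.029 for Gatm, -0.090 to 0.078 for Pck1 and -0.095 to 0.0084 for Pcx. Slopes that turned elsewhere were Pck1 at 0.00082, Asl at 0.0084 and Miox at 0.033 without aliskiren mouse 1 and losartan mouse 3, Pcx at 0.0057 along Lcn2, and Asl at 0.0028 and Miox at 0.013 with the proximal tubule mean. Correlations that turned were Pcx at 0.034 with Lcn2, and Asl at 0.113 and Miox at 0.024 without losartan mice 3 and 5. Within a drug, where no test was made, r was also above 0 for G6pc at 0.011 and Miox at 0.104 in aliskiren mice and for Pcx at 0.245 in losartan mice. Same-numbered mice of the groups did not deviate together in every pair (r from -0.229 to 0.42), and 2 of 5 correlated best with their own number. Whether the number stands for something shared cannot be told from 5 pairs. The block gave 0 members in both fits. With 5 mice per group, a difference well above 1.5-fold can also fail to pass. The proximal tubule marker Slc22a7 differed by 1.42 log2 units (SE 0.81) with all mice, at a limma adjusted p of 0.945. A difference that did not pass is therefore not shown to be absent.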

Other observations

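The arrays carry 4 control probe sets for Pcx along the length of its transcript, which were left out of the gene table. In the order 3′, 5′, MB and MA, as their names give it, their means over all mice were 11.75, 7.65, 7.25 and 7.15. In that order their differences between the drugs were -0.11 (SE 0.07), -0.16 (SE 0.12), -0.17 (SE 0.08) and -0.08 (SE 0.08). The probe set of Pcx used in the report had -0.10 (SE 0.07), and none passed. In the same order, their slopes along Havcr1 were -0.0044 (SE 0.022), 0.039 (SE 0.035), 0.022 (SE 0.025) and -0.00075 (SE 0.024). The probe set used had -0.0091 (SE 0.022). These slopes differed in sign and none passed. The value at the 3′ end minus that at the 5′ end, a common reading of RNA integrity, was 3.97 to 4.39 in aliskiren mice and 3.87 to 4.30 in losartan mice. The 3′ end thus lay far above the 5′ end in every mouse, by a mean of 4.12 log2 units with aliskiren and 4.06 with losartan. The means of MB and MA lay below that of the 5′ set. How much of the gap comes from the RNA and how much from the probe sets was not tested. Losartan mouse 3, at 3.87, and losartan mouse 1, at 3.88, had the lowest of these differences.

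Pck1 had 2 further probe sets. Their slopes along Havcr1 were -0.139 (SE 0.073) and -0.141 (SE 0.097), against -0.073 (SE 0.037) for the probe set of highest mean, with limma adjusted p = 0.222, 0.344 and 0.207. All 3 were negative and none passed.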
